A study of Bos taurus with 10 samples.

Results

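The genes described here encode the enzymes and regulators of cholesterol and fatty acid synthesis in bovine early blastocysts. They are 31 named genes, chosen by symbol for their known function, and 31 of 31 were found among the 20112 genes of the table and tested. RNA-seq was performed on single in vitro produced embryos, with 5 WT and 5 *SOX2* KO early blastocysts, and the sample labels place all 10 at 7.0 days after fertilization, whereas the study's text gives a later time. WT embryos (nc1 to nc5) were injected as zygotes with mRNA of BE3, a cytosine base editor, and are therefore injected controls. *SOX2* KO embryos (ko1 to ko5) received the same mRNA together with a mixture of sgRNAs, designed to write stop codons into *SOX2*, a transcription factor of the pluripotency network. Editing of an injected zygote can be mosaic, the genotypes were read by the authors from part of the cDNA, and the labels give neither the sex of an embryo nor the day or batch of its collection. The comparison asks what the loss of SOX2 changes in the transcriptome of the blastocyst.

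Cholesterol is built from acetyl-CoA through mevalonate, farnesyl diphosphate, squalene and lanosterol. Fatty acids are built from the same acetyl-CoA, then elongated, desaturated and activated as acyl-CoA. Many genes of both routes are targets of the SREBP transcription factors, which SCAP escorts out of the endoplasmic reticulum when sterols are scarce and which the INSIG proteins hold back when sterols are plentiful. Ruminant oocytes and embryos are rich in lipid droplets, and membranes are needed for each cleavage.

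The values are read counts divided by the DESeq2 size factor of each embryo, called normalized read counts here. They are not divided by gene length, so levels are compared between embryos and not between genes. Reads per embryo lay between 2223670 and 5134855 in WT and between 2578284 and 4337342 in the *SOX2* KO group. Genes with at least 1 read numbered 15919 to 18092 per embryo in WT and 17987 to 19813 in the *SOX2* KO group. *SOX2* itself had 56.5, 93.4, 83.5, 73.0 and 84.4 in nc1 to nc5, and 39.0, 26.4, 64.0, 82.1 and 71.5 in ko1 to ko5. Its groups overlapped (log2 fold change -0.55, limma adjusted p = 0.167), so transcript level does not tell the genotype. The share of reads on the 18S gene *RN18S1* lay between 26.4% and 37.0% for WT and between 32.5% and 45.0% for *SOX2* KO embryos. *XIST*, which is transcribed from the inactive X chromosome, was at 11.9 in nc2 and 33.7 in ko4, at 429 in nc4 and between 1267 and 2819 in the other 7 embryos. Of the epiblast markers, 8 of 9 measured fell in *SOX2* KO embryos and their summed level was 2794 to 3351 in WT against 1243 to 1607. Of 10 trophectoderm markers, 4 rose and *TFAP2C* fell, with a summed level of 24397 to 36481 in WT against 34689 to 48887. Most of that sum was *KRT8* and *KRT18*, with means of 17496 and 9100 in WT, and *KRT8* did not pass (limma adjusted p = 0.352). Of 7 primitive endoderm markers, 3 fell, among them *PDGFRA* and *HNF4A*, and the summed level was 1425 to 1712 against 1130 to 1280. The largest part of that sum was *GATA6*, with a WT mean of 958, which did not pass (limma adjusted p = 0.584). Markers of cumulus or granulosa cells summed to at most 65.7 in any embryo, and 0 of 8 passed in limma, 0 passed in edgeR, and 1 had an unadjusted p under 0.05. In a whole embryo, fewer cells of a type and less RNA per cell cannot be told apart.

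Of the 31 genes, *SCD* and *FADS1* rose in *SOX2* KO embryos and *ELOVL6* and *ACSL4* fell, at a limma adjusted p of at most 0.05 over the 20056 genes tested. All 4 act on fatty acids. Of the 16 enzymes of the mevalonate and sterol route, 0 passed in limma, edgeR or DESeq2, and 1 (*PMVK*) had an unadjusted p under 0.05. The 4 genes are 12.9% of the 31, beside 13.6% of all genes tested (10.4% higher and 3.2% lower). Where a gene averaged 50 or more, which holds for each of the 31 and for 6982 genes in all, 13.7% passed (6.5% higher and 7.16% lower). The share of the 31 genes was thus near the background on either base.

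A call also required a 2-fold change, up or down, and *ACSL4* alone of the 31 genes met it, or 3.23%. The background was 10.1% of all genes tested (8.93% higher and 1.16% lower) and 4.2% of the 6982 better expressed genes (2.68% higher and 1.52% lower). The groups overlapped in each of the 31 genes, whereas they did not overlap in 9.17% of all genes tested and in 9.94% of the 6982. The median log2 fold change of the 31 genes was 0.11, beside 0.25 over all genes tested and -0.09 over the 6982. Quantile normalization moved the median of all genes to -0.02 and the share of calls that were higher from 88.5% to 58.5%, and *SCD*, *FADS1*, *ELOVL6* and *ACSL4* passed under it too. The least covered value of any member was 13 reads, for *PMVK* in nc2.

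**Figure D1:**
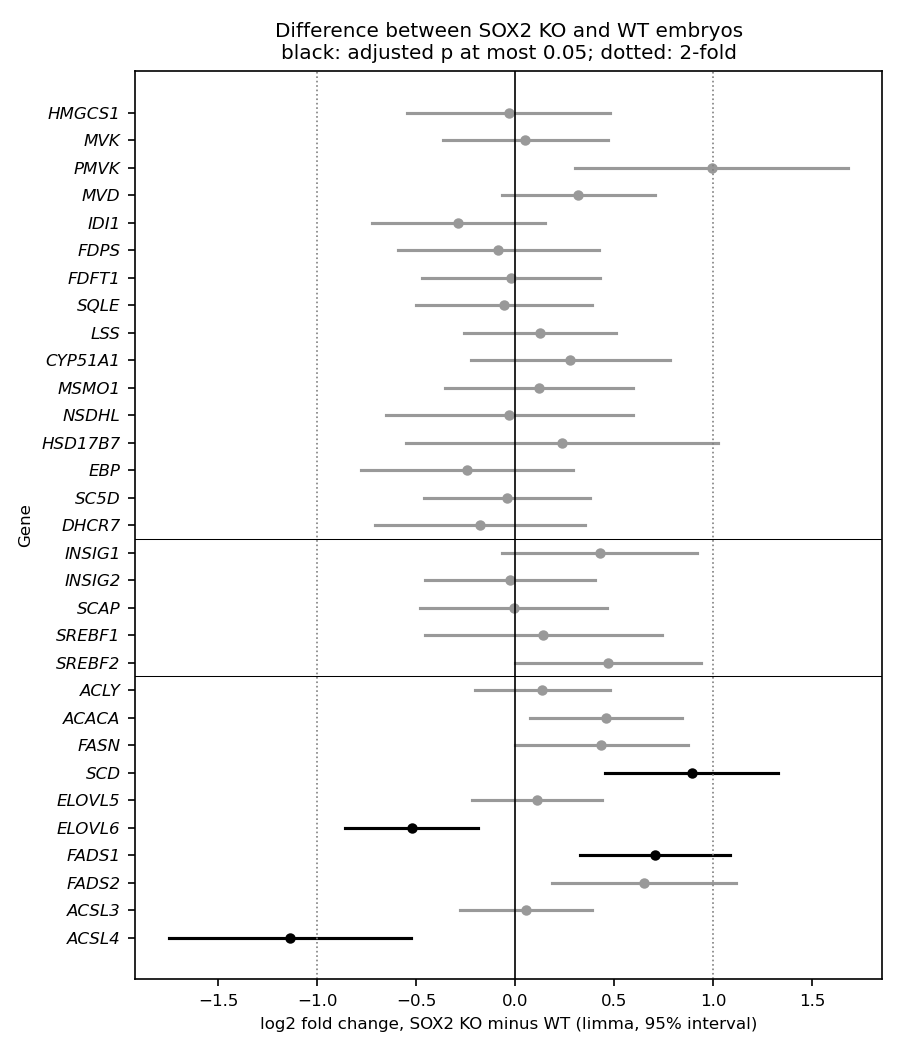
Log2 fold change (*SOX2* KO minus WT, limma on log2(normalized read count + 1)) of the 31 genes, with 95% intervals; points in black have an adjusted p of at most 0.05 and dotted lines mark a 2-fold difference. The upper 16 genes (mevalonate and sterol enzymes) have a median of -0.03, and the 4 black points belong to *SCD*, *FADS1*, *ELOVL6* and *ACSL4*.

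The 6 enzymes from acetoacetyl-CoA to farnesyl diphosphate did not pass the test. *HMGCS1*, which condenses acetyl-CoA with acetoacetyl-CoA to HMG-CoA, had 1052, 804, 500, 1267 and 1329 normalized read counts in nc1 to nc5. In ko1 to ko5 it had 1296, 615, 808, 764 and 1294. The ranges of the 2 groups almost coincide, and the log2 fold change was -0.03 (95% interval -0.55 to 0.48, limma adjusted p = 0.943). *FDPS*, the farnesyl diphosphate synthase, spanned 407 to 1100 across WT and 445 to 1116 across *SOX2* KO embryos (log2 fold change -0.08, limma adjusted p = 0.842). The kinase *MVK* (0.05), the decarboxylase *MVD* (0.32) and the isomerase *IDI1* (-0.29) had log2 fold changes with limma adjusted p of 0.884, 0.237 and 0.352.

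*PMVK*, the phosphomevalonate kinase, lay nearest to the threshold of these 6. Its normalized read counts were 61.8, 19.3, 32.8, 65.3 and 99.2 in WT and 127, 80.6, 89.5, 69.0 and 134 in *SOX2* KO embryos. The highest WT embryo, nc5, exceeded 3 of the 5 *SOX2* KO embryos, and the low end of WT was nc2. The log2 fold change was 0.99 (standard error, SE, 0.33, adjusted p = 0.0504 in limma), and the count tests edgeR and DESeq2 gave adjusted p of 0.114 and 0.0855. In limma it passed in 2 of 10 repeats without 1 embryo, those without nc5 or ko4, with adjusted p of 0.0192 and 0.0283. In the other repeats adjusted p reached 0.135, and without nc2 the log2 fold change was 0.67 (adjusted p = 0.127). *PMVK* passed when embryos were scaled by the median ratio of genes averaging 100 or more (log2 fold change 1.09, limma adjusted p = 0.0417). It also passed in limma with *XIST* as a covariate (0.89, adjusted p = 0.0354) and with sample weights (0.87, adjusted p = 0.0458). With the *RN18S1* share as a covariate it did not (0.88, limma adjusted p = 0.361).

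The 10 enzymes from squalene synthase to cholesterol spanned log2 fold changes of -0.24 (*EBP*) to 0.28 (*CYP51A1*), with limma adjusted p of at least 0.439. *SQLE*, the squalene epoxidase and a rate-limiting step of the route, had 404, 263, 240, 323 and 506 in WT and 363, 195, 351, 393 and 348 in *SOX2* KO embryos. The fitted difference was -0.06 on the log2 scale (95% interval -0.50 to 0.39). The lanosterol demethylase *CYP51A1* had 345, 255, 210, 303 and 544 in WT and 465, 258, 286, 381 and 612 in *SOX2* KO embryos. In both genes every *SOX2* KO embryo but 1 lay within the range of the WT embryos. The squalene synthase *FDFT1* (-0.02), the lanosterol synthase *LSS* (0.13) and the C4-methyl sterol oxidase *MSMO1* (0.12) had log2 fold changes near 0. *SC5D* and *DHCR7*, which carry out the last desaturation and reduction before cholesterol, had -0.04 and -0.18. Over the 16 enzymes of the whole route, the median was -0.03, and for 14 of them the 95% interval excluded a 2-fold difference in either direction. The exceptions were *PMVK* (0.30 to 1.68) and *HSD17B7*, a 3-keto reductase (-0.55 to 1.02). The interval also excluded a 2-fold difference for 80.9% of the 6982 genes averaging 50 or more.

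Embryos of the same group differed widely in these 16 genes. The median standard deviation of log2(normalized read count + 1) was 0.52 in WT and 0.41 in *SOX2* KO embryos, beside 0.29 in each group over the 6982 genes that averaged 50 or more. In WT, nc5 was highest in 13 of the 16 genes and nc3 lowest in 11, with nc2 lowest in the other 5. Over the 6982 better expressed genes, nc5 was highest in 15.5% and nc3 lowest in 32.8%. In the *SOX2* KO group, ko5 was highest in 10 of the 16 genes (15.9% of the 6982) and ko2 lowest in 9 (1119 of the 6982), with ko4 lowest in 6 (1399 of the 6982). With all embryos scaled to equal totals without *RN18S1*, nc5 was again highest in 13 and nc3 lowest in 9, whereas in the *SOX2* KO group ko1 was highest in 9 and ko5 in 6. Of the other 15 genes, nc3 was highest in 6 and nc5 in 5 among WT embryos, while ko5 was highest in 9 and ko4 lowest in 9 among *SOX2* KO embryos.

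Expressed as the mean of the 16 log2 values minus the WT mean, nc1 to nc5 stood at 0.23, -0.40, -0.62, 0.23 and 0.57. The *SOX2* KO embryos stood at 0.36, -0.22, 0.06, -0.27 and 0.42, inside the range of WT. The median of the 6982 better expressed genes stayed between -0.17 and 0.07 in all 10 embryos. In nc3, 0 of the 16 genes were above their WT mean, and in nc5, 15 were. Among WT embryos, nc3 had the highest share of *RN18S1* reads (37.0%) and nc5 the lowest (26.4%), whereas among *SOX2* KO embryos ko5 had the highest (45.0%) and also the highest sterol mean. On the scale of equal totals nc5 (0.58) and nc3 (-0.48) were again the ends of WT, with nc2 also at -0.48, and ko1 (0.49) stood above ko5 (0.44).

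**Figure D2:**
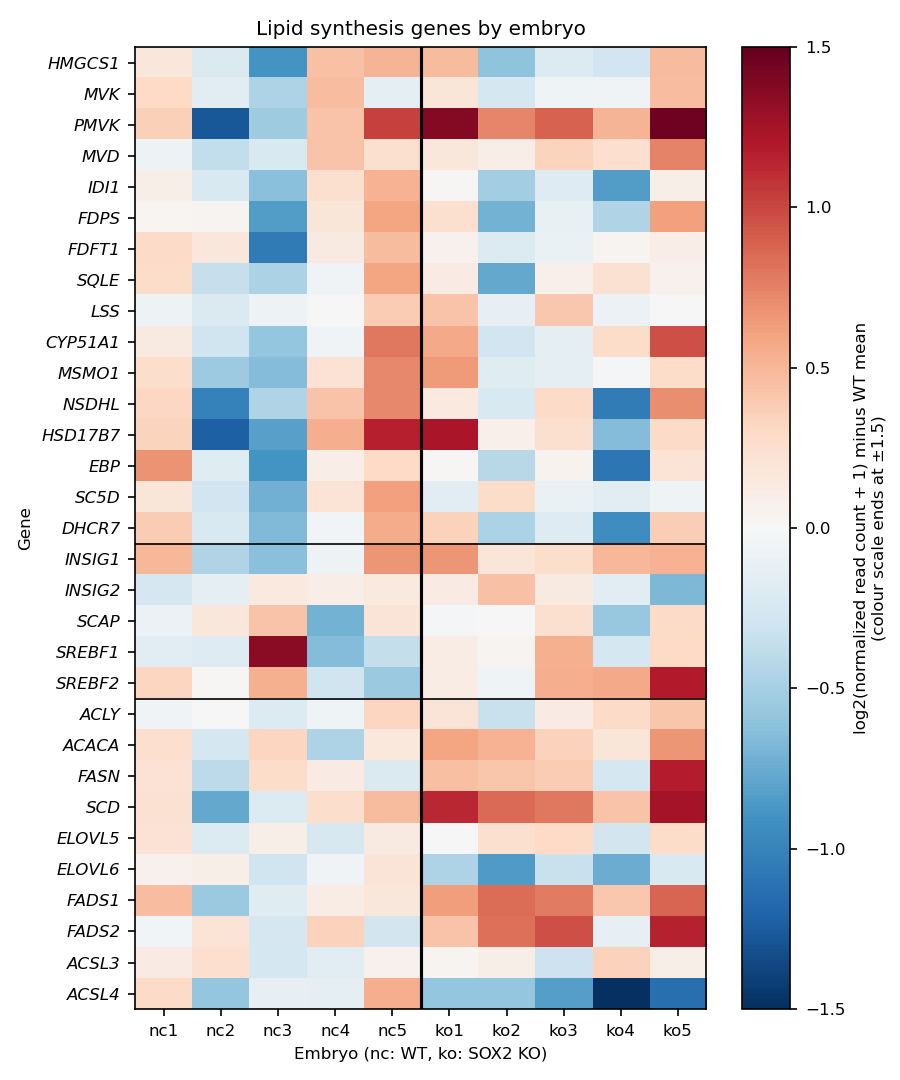
Each cell gives log2(normalized read count + 1) of a gene in an embryo minus the mean of the 5 WT embryos, from blue (lower) to red (higher). In the upper 16 rows the columns nc2 and nc3 are mostly blue and nc5 and ko5 mostly red, while *SCD* and *FADS1* are red and *ACSL4* blue across the *SOX2* KO embryos.

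Of 6 other genes of sterol synthesis counted as a list, among them *ACAT2*, 0 passed in limma and 0 in edgeR, and 1 had an unadjusted p under 0.05.

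**Figure D3:**
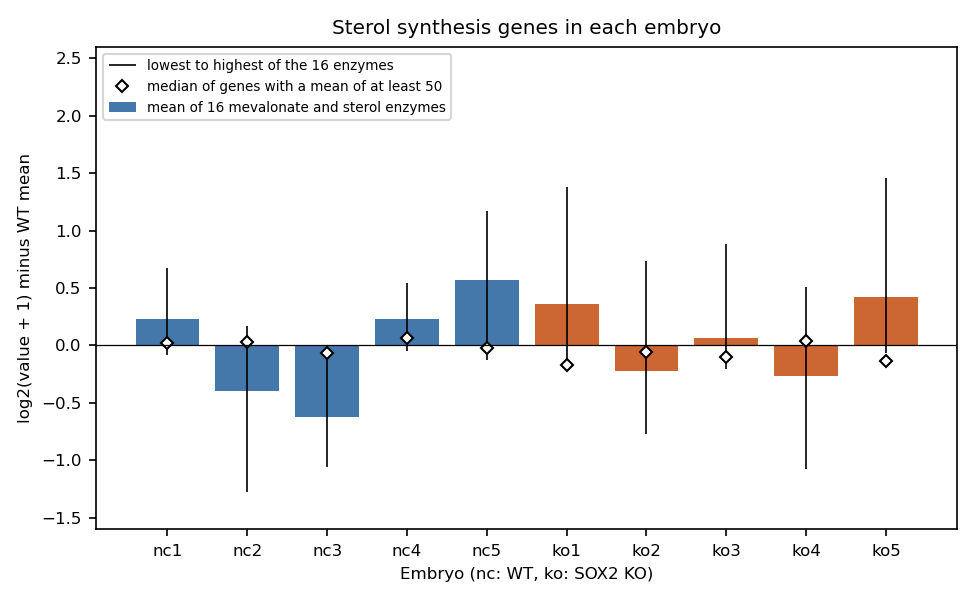
Mean deviation of the 16 mevalonate and sterol enzymes from the WT mean on the log2 scale in each embryo (bars), with the range over the 16 genes (lines) and the median of the 6982 genes averaging 50 or more (diamonds). Of the WT embryos nc3 is lowest (-0.62) and nc5 highest (0.57), and the *SOX2* KO embryos lie between them.

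Of the 5 genes of SREBP control, 0 passed in limma, edgeR or DESeq2, and 0 had an unadjusted p under 0.05. *SREBF2*, which encodes the SREBP isoform most active on sterol genes, had 350, 283, 405, 227 and 189 in WT and 302, 268, 409, 415 and 639 in *SOX2* KO embryos. Here nc5, the WT embryo with the highest sterol genes, had the lowest value, and ko5 the highest of the *SOX2* KO embryos (log2 fold change 0.47, SE 0.23, adjusted p = 0.156 in limma). *SREBF1*, whose product acts more on fatty acid genes, had 74.8, 72.7, 215, 52.8 and 64.9 in WT and 90.2, 85.8, 121, 69.0 and 103 in *SOX2* KO embryos. The WT range was set by nc3 alone, which also had the highest *SREBF2* of WT. The escort gene *SCAP* averaged 92.3 ± 24.8 in WT against 90.6 ± 19.6 after *SOX2* KO (SD, n = 5 each), a log2 fold change of -0.01.

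*INSIG1*, itself a target of the SREBPs, had 110, 56.4, 49.7, 73.8 and 123 in WT and 124, 88.5, 93.0, 110 and 112 in *SOX2* KO embryos. As in the sterol enzymes, nc3 was lowest and nc5 highest of WT. *INSIG2*, its paralog, had 85.5, 91.9, 113, 110 and 113 in WT and 111, 139, 112, 91.2 and 63.4 in *SOX2* KO embryos. Its lowest value of all was that of ko5. The log2 fold changes of *INSIG1* and *INSIG2* were 0.43 and -0.03 (limma, adjusted p = 0.216 and 0.941). The log2 ratio of *INSIG1* to *INSIG2* within each embryo averaged -0.39 ± 0.63 in WT against 0.06 ± 0.55 after *SOX2* KO (SD, n = 5 each; exact permutation over embryos, two-sided p = 0.262). That of *SREBF1* to *SREBF2* averaged -1.74 ± 0.53 and -2.06 ± 0.49 (SD, n = 5 each; p = 0.333 by the same exact permutation). After Benjamini-Hochberg adjustment over the 5 paralog pairs tested, these exact permutation p were 0.417 and 0.417. Of 6 further genes of SREBP processing, among them the proteases *MBTPS1* and *MBTPS2*, 0 passed in limma, 0 passed in edgeR and 0 had an unadjusted p under 0.05.

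Of the 3 enzymes that make palmitate from citrate, 0 passed in limma, edgeR or DESeq2, and *ACACA* had an unadjusted p under 0.05. *ACLY*, the ATP citrate lyase, spanned 1080 to 1556 across WT and 988 to 1660 across *SOX2* KO embryos (0.14, limma adjusted p = 0.590). *ACACA*, the acetyl-CoA carboxylase, had 153, 107, 161, 93.2 and 144 in WT and 195, 185, 164, 146 and 204 in *SOX2* KO embryos. The fatty acid synthase *FASN* had 1084, 710, 1136, 1019 and 802 in WT and 1284, 1252, 1217, 780 and 2119 in *SOX2* KO embryos. In both genes 4 of 5 *SOX2* KO embryos lay above the highest WT embryo, and ko4 did not. *ACACA* had a log2 fold change of 0.46 and *FASN* of 0.44 (limma adjusted p = 0.0933 and 0.156). Each gene passed in limma in only 1 of 10 repeats without 1 embryo, the repeat that left out ko4. It gave 0.53 for *ACACA* (limma adjusted p = 0.0481) and 0.61 for *FASN* (limma adjusted p = 0.0267). Leaving out ko4 also raised the share of all genes that passed from 13.6% to 22.5%. Among the remaining repeats the highest limma adjusted p was 0.227 for *ACACA* and 0.428 for *FASN*. With the share of *RN18S1* reads in the model *FASN* had -0.08.

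Of the 3 desaturases, *SCD* and *FADS1* rose in *SOX2* KO embryos. *SCD*, which places the first double bond into saturated acyl chains, had 882, 440, 652, 905 and 1044 normalized read counts in WT embryos. In *SOX2* KO embryos it had 1646, 1359, 1306, 1011 and 1787. Only ko4, at 1011, lay below the highest WT embryo, nc5. *SCD* thus rose from 785 ± 238 (SD, n = 5) to 1422 ± 304 (SD, n = 5), 1.85-fold (95% interval 1.37 to 2.51, log2 fold change 0.89, SE 0.21, adjusted p = 0.0104 in limma), and passed in all 10 repeats without 1 embryo. *FADS1*, the delta-5 desaturase of polyunsaturated fatty acids, had 284, 139, 181, 223 and 233 in WT and 320, 368, 356, 274 and 378 in *SOX2* KO embryos. Here too ko4 alone lay below the highest WT embryo, which was nc1. *FADS1* rose from 212 ± 54.6 to 339 ± 42.9 (SD, n = 5 each; log2 fold change 0.71, SE 0.18, adjusted p = 0.0163 in limma), and without ko5 its adjusted p was 0.0501.

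*FADS2*, the delta-6 desaturase, overlaps *FADS1* in the RefSeq gene table of ARS-UCD2.0, so reads may be shared between the 2 genes. It had 96.2, 114, 82.5, 126 and 81.5 in WT and 132, 176, 193, 90.4 and 221 in *SOX2* KO embryos. All *SOX2* KO embryos but ko4 were above WT, and the log2 fold change of 0.65 missed the threshold (SE 0.22, adjusted p = 0.0560 in limma). With DESeq2 on the recovered reads its adjusted p was 0.0370, with edgeR 0.0637, and with median ratio scaling in limma 0.0371. Without ko4 limma gave 0.84 with 0.00695, the only pass in the 10 repeats without 1 embryo, where adjusted p reached 0.162. With *XIST* as a covariate the limma adjusted p was 0.0551. With the *RN18S1* share as a covariate the log2 fold change was 0.36 (limma adjusted p = 0.563). The log2 ratio of *FADS1* to *FADS2* averaged 1.06 ± 0.52 in WT against 1.11 ± 0.33 after *SOX2* KO (SD, n = 5 each; exact permutation over embryos, two-sided p = 0.825).

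Of the elongases, *ELOVL6* fell. *ELOVL6*, which extends palmitate to stearate, had 1742, 1774, 1357, 1605 and 1896 in WT and 1206, 920, 1324, 993 and 1423 in *SOX2* KO embryos. Only ko5 exceeded the lowest WT embryo, nc3. *ELOVL6* fell from 1675 ± 206 (SD, n = 5) to 1173 ± 214 (SD, n = 5), to 0.696 of the WT level (log2 fold change -0.52, SE 0.16, adjusted p = 0.0381 in limma), and it passed in 3 of 10 repeats without 1 embryo (those without nc3, ko4 or ko5), with adjusted p up to 0.0894. With embryos scaled by the median ratio of genes averaging 100 or more, it had -0.42 and an adjusted p of 0.0761. *ELOVL5*, which extends polyunsaturated chains, had 512, 381, 468, 373 and 485 in WT and 441, 522, 542, 363 and 532 in *SOX2* KO embryos (log2 fold change 0.11, limma adjusted p = 0.665). The log2 ratio of *ELOVL5* to *ELOVL6* within an embryo, which a scaling factor of the embryo hardly alters, was -1.76, -2.22, -1.53, -2.10 and -1.97 in WT. In *SOX2* KO embryos it was -1.45, -0.82, -1.29, -1.45 and -1.42, without overlap. The groups of *ELOVL5* overlap, and those of the ratio do not. The difference of 0.63 was the only one of the 5 paralog ratios to pass (exact permutation over embryos, two-sided p = 0.00794, the smallest that 5 against 5 allow, and 0.0397 after Benjamini-Hochberg adjustment over the 5 pairs).

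Of the acyl-CoA synthetases, *ACSL4* fell. *ACSL4*, which prefers arachidonate and other polyunsaturated chains, had 725, 396, 548, 542 and 869 in WT and 399, 399, 334, 98.6 and 271 in *SOX2* KO embryos. A single WT embryo, nc2, lay below 2 of the *SOX2* KO embryos, and ko4 was the lowest of all 10. *ACSL4* fell from 616 ± 183 (SD, n = 5) to 300 ± 125 (SD, n = 5), to 0.454 of the WT level (95% interval 0.298 to 0.693, log2 fold change -1.14, SE 0.29, adjusted p = 0.0166 in limma). The adjusted p passed in all 10 repeats without 1 embryo, and without ko4 the log2 fold change was -0.78, which is less than 2-fold. *ACSL3*, a paralog found on lipid droplets, had 1474, 1606, 1132, 1204 and 1411 in WT and 1395, 1441, 1094, 1723 and 1441 in *SOX2* KO embryos (log2 fold change 0.05, limma adjusted p = 0.851). The log2 ratio of *ACSL3* to *ACSL4* averaged 1.19 ± 0.49 in WT against 2.38 ± 1.01 after *SOX2* KO (SD, n = 5 each; exact permutation over embryos, two-sided p = 0.0317, and 0.0794 after adjustment over the 5 pairs), so the pair was not shown to change unequally. Without nc2 the adjusted exact permutation p was 0.0397.

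**Figure D4:**
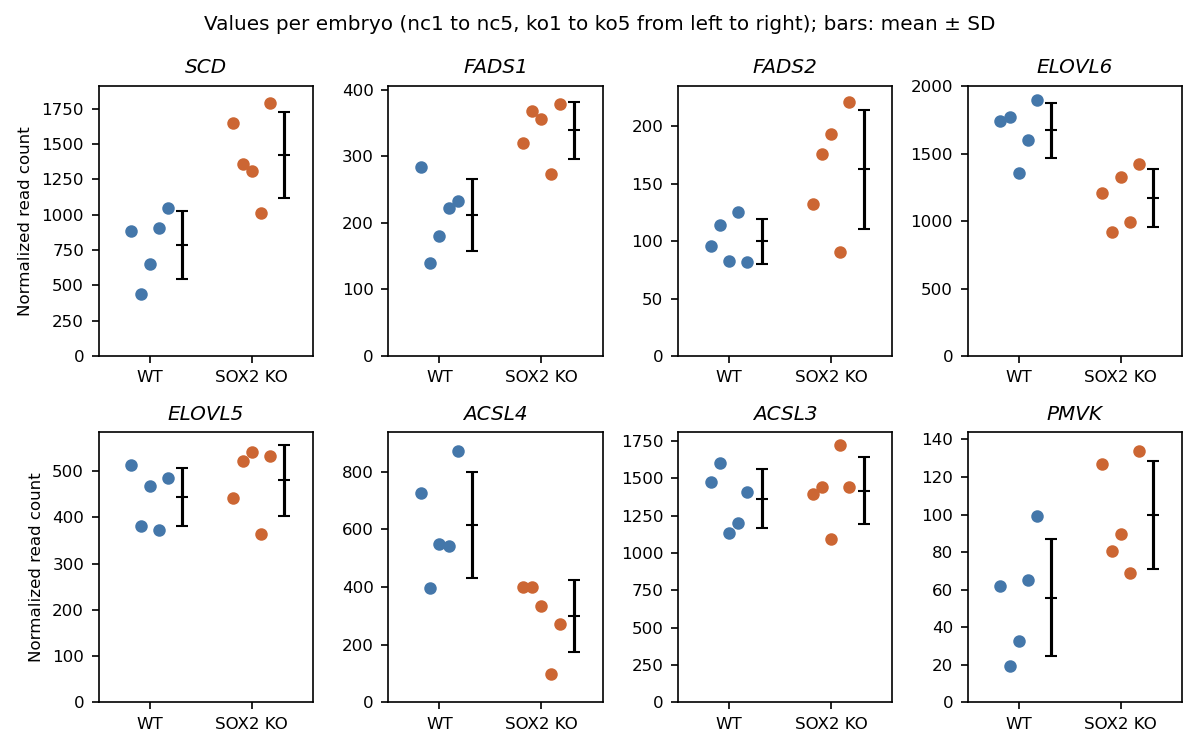
Normalized read counts of 8 genes in each embryo (points, nc1 to nc5 and ko1 to ko5 from left to right) with the mean and SD of each group (bars). *SCD*, *FADS1* and *FADS2* have 4 of 5 *SOX2* KO embryos above every WT embryo, *ELOVL6* has 4 of 5 below, and the groups of *ELOVL5* and *ACSL3* overlap widely.

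*ACSL4*, *NSDHL* and *EBP* lie on the X chromosome in the RefSeq gene table of ARS-UCD2.0, and the embryos with the least *XIST*, nc2 and ko4, were the lowest of their group in *ACSL4* and *NSDHL*. *NSDHL*, a sterol dehydrogenase, had 206 in nc2 and 200 in ko4, against 304 to 686 in the other 8 embryos. *EBP*, the delta-8 delta-7 sterol isomerase, had 159 in ko4, where the next lowest of its group had 252, whereas nc3 (180) was lowest in WT. With *XIST* (log2) in the limma model, the log2 fold change of *ACSL4* was -1.27 (adjusted p = 0.000169). Without nc2 and ko4, a choice made after the values were seen, it was -0.92 (limma adjusted p = 0.00311), and *SCD* and *FADS1* kept adjusted p of 0.00440 and 0.0152. *ELOVL6* then had -0.45 (limma adjusted p = 0.0714).

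The highest shares of *RN18S1* reads were those of *SOX2* KO embryos (39.6% in ko3 and 45.0% in ko5). Once that share entered the limma model, 0 of the 31 genes passed, beside 1.26% of all genes tested. The number called among all genes fell from 2024 to 220. The log2 fold changes of *SCD*, *FADS1*, *ELOVL6* and *ACSL4* were then 0.73, 0.58, -0.59 and -1.33, with adjusted p of 0.206, 0.238, 0.172 and 0.104. The markers of epiblast and trophectoderm moved with the group as given above, and their part in these 4 genes was not tested.

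Genes that take up, store and oxidize lipids were counted in the same fit from lists chosen by function. Of 11 genes of sterol uptake and traffic, *ABCG1* rose and *SCARB1* fell. *SCARB1*, the receptor for high-density lipoprotein, went from 92.5 ± 12.8 to 53.5 ± 19.8 (SD, n = 5 each; log2 fold change -0.85, limma adjusted p = 0.0279), with ko3 at 77.9 above the lowest WT embryo, nc3 at 73.6. *ABCG1*, a sterol exporter, had 0 or 1 reads in each WT embryo and 3 to 23 reads in the *SOX2* KO embryos (limma adjusted p = 0.00463), so WT is under the floor of 3 reads and no fold is given.

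Of 21 other genes of fatty acid synthesis and binding, 3 rose and 0 fell. *FABP5*, a carrier of fatty acids in the cytoplasm, had 55.7, 48.9, 82.5, 181 and 291 in WT and 973, 577, 688, 1211 and 1023 in *SOX2* KO embryos. The groups were far apart, and its log2 fold change was 3.05 (SE 0.36, adjusted p = 2.92e-05 in limma). With the *RN18S1* share in the model it was 3.29 (limma adjusted p = 0.000869). *ELOVL1*, an elongase of very long saturated chains, rose from 489 ± 76.0 to 729 ± 103 (SD, n = 5 each; adjusted p = 0.0203 in limma) without overlap. *ACACB*, the mitochondrial paralog of *ACACA*, rose from at most 5.97 in WT to at least 7.92 in *SOX2* KO embryos (limma adjusted p = 0.0384), on 2 to 28 reads per embryo, and reads of the 2 carboxylases could be shared.

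Of 15 genes of lipid storage and oxidation, 4 rose and 1 fell. *PLIN2*, a coat protein of lipid droplets, had 473, 400, 283, 383 and 436 in WT and 185, 226, 201, 105 and 164 in *SOX2* KO embryos. Every WT embryo was above every *SOX2* KO embryo, with a log2 fold change of -1.19 (SE 0.20, adjusted p = 0.000841 in limma) and, with the *RN18S1* share as a covariate, of -1.15 (limma adjusted p = 0.0251). *PLIN3*, a droplet coat protein also found in the cytosol, rose from 377 ± 55.4 to 567 ± 61.3 (SD, n = 5 each; adjusted p = 0.0150 in limma), likewise without overlap. *DGAT1*, which completes triacylglycerol, *PNPLA2*, the lipase that starts its breakdown, and *ACADVL*, an acyl-CoA dehydrogenase of long chains, rose by 0.71, 0.96 and 0.74 on the log2 scale (adjusted p = 0.0378, 0.0427 and 0.0373 in limma). In edgeR these 3 genes had adjusted p of 0.0740, 0.0979 and 0.0561, and *ELOVL1* had 0.0534. By list, the share that passed was 18.2% for sterol uptake and traffic, 14.3% for fatty acid synthesis and binding and 33.3% for storage and oxidation. Over the 59 genes tested in all 5 lists, with those of sterol synthesis and SREBP processing above, 8 rose and 2 fell. That is 16.9%, beside the 13.6% of all genes. When 1 embryo was left out, *FABP5*, *PLIN2*, *PLIN3* and *ABCG1* passed in 10 of 10 repeats, *ELOVL1* in 9, *SCARB1* in 5, *ACACB*, *DGAT1* and *PNPLA2* in 4 and *ACADVL* in 3. With the *RN18S1* share in the model, *FABP5* and *PLIN2* passed and the other 8 of these genes did not.

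**Figure D5:**
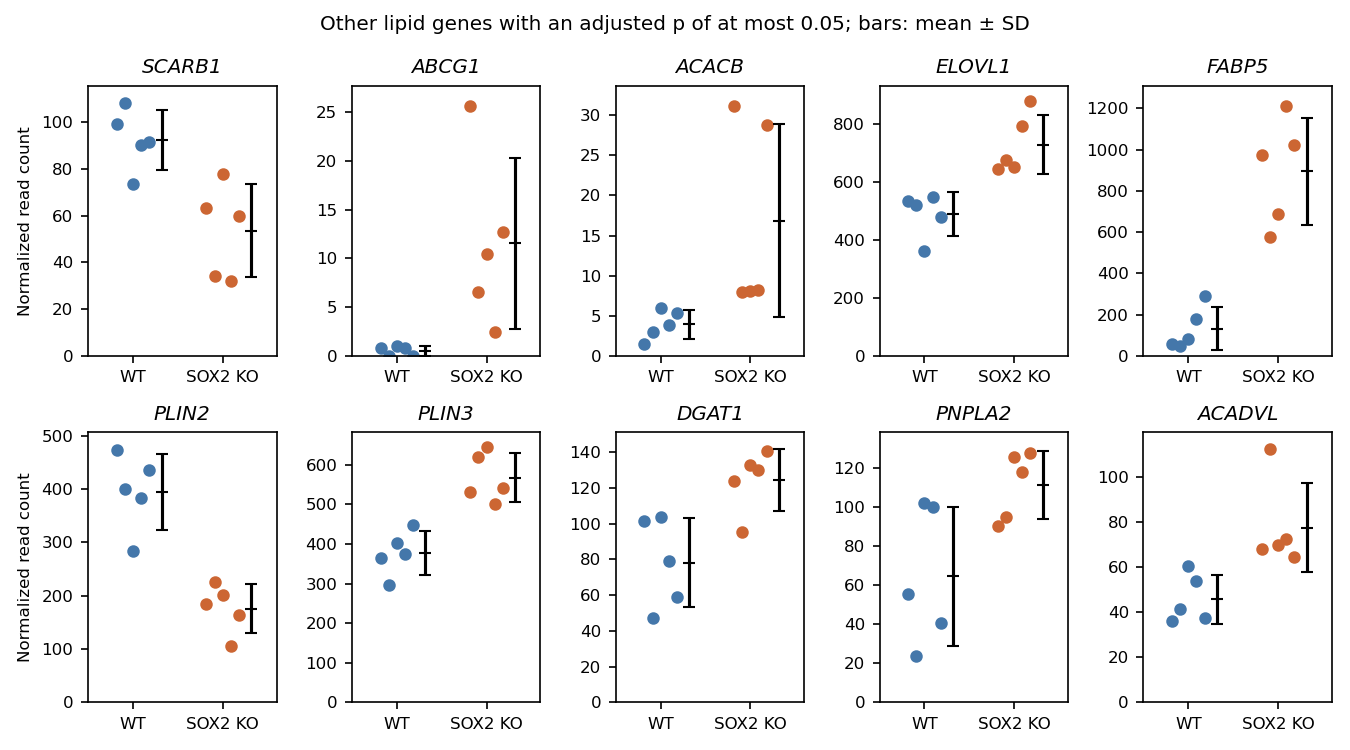
Normalized read counts of the 10 genes of lipid uptake, binding, storage and oxidation that passed the test in limma, as points per embryo with the mean and SD of each group. *FABP5* is higher and *PLIN2* lower in every *SOX2* KO embryo than in any WT embryo.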

How the data were processed

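Single early blastocysts were sequenced after Smart-seq2, which primes polyadenylated RNA with oligo(dT) and amplifies the cDNA without molecular identifiers, so intervals cover no more than the spread between embryos. Per the study's methods, the authors used Trimmomatic for trimming, Hisat2 for mapping (genome ARS-UCD1.2) and featureCounts for counting. The signal values the authors deposited are these counts divided by the DESeq2 size factor of each embryo. The annotation release, strand setting and treatment of multi-mapped reads are not given in the sources used here, so overlapping genes, antisense genes and paralogs may share reads, and 12 of the 31 genes overlap another gene in the RefSeq table. Of 201120 values, 201120 (100%) lay within 1e-06 of a whole number of reads once divided by a step specific to the embryo, which gave the reads. The lowest total was 11 reads per gene.

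Columns were assigned to groups by name. Groups were compared with limma 3.58.1 (lmFit, eBayes with trend) on log2(normalized read count + 1), which understates changes of genes with few reads, over 20056 genes with a mean of at least 1, without covariates and with Benjamini-Hochberg adjustment. Calls needed a fold of at least 2 or at most 0.5 as well as an adjusted p no higher than 0.05. A count test was not the main one because the deposited values are normalized; edgeR 4.0.16 (quasi-likelihood) and DESeq2 1.42.0 were run on the recovered reads (R 4.3.3). Paralog ratios were compared by exact permutation (Python 3.11.15, numpy 2.4.6, pandas 2.3.3). The p-values set each group difference against the spread between these embryos and treat the embryos as independent. The labels do not say whether embryos shared an oocyte batch, so that independence could not be checked. The alternatives were pseudocounts of 0.1 and 5, 3 other scalings, 2 other filters on the mean, both count tests, 2 covariates, sample weights, each embryo left out in turn and, added later, both embryos with the least *XIST* left out. The 31 genes and all lists were chosen with earlier results of these data known. Values of every embryo are given for members that passed the test, the 5 paralog pairs and *SOX2*, and other lipid genes are named where they passed. The other members shown by embryo (*HMGCS1*, *PMVK*, *SQLE*, *CYP51A1*, *ACACA*, *FASN*) and the limit of 50 on the mean were chosen after the values were seen. No sequences or coordinates are given, because no genome of ARS-UCD1.2 was used here, and the promoter motif search was not run. Some genes of the lists are counted but not reported here by name.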

Additional observations from a re-analysis of the deposited data

Results flagged for a closer look

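Among 64 sets of 5 embryos (31 genes and *SOX2*, in WT and in *SOX2* KO), 3 had an embryo that stood apart from its group, and about 3.2 such sets arise by chance. *SQLE* had a normalized read count of 195 in ko2, where the nearest *SOX2* KO embryo had 348 and the highest 393. *SC5D* had 395 in the same embryo, with the nearest at 311 and the lowest at 289, so ko2 was low in the former enzyme and high in the latter. *SREBF1* had 215 in nc3, with the nearest WT embryo at 74.8 and the lowest at 52.8. The reasons were not tested.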

How the results depend on the processing

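The number of genes called among all genes (2024) was 1185 with a pseudocount of 5, 1076 with quantile normalization, 692 with a mean of at least 10, 220 with the *RN18S1* share as a covariate and 3515 with sample weights, and 930 (without ko5) to 3316 (without ko4) when 1 embryo was left out. Of the 31 genes, the 1 called became 2 with median ratio scaling, 4 by adjusted p alone, and 0 with the *RN18S1* share as a covariate or without nc2 and ko4, and it was 1 to 3 with 1 embryo left out. Those with an adjusted p of at most 0.05, 4 in all, were 0 with the *RN18S1* share as a covariate and 3 to 8 with 1 embryo left out, 8 without ko4. The share of all genes that passed moved too. It was 1.26% with that covariate, 6.14% without ko5 and 22.5% without ko4. *SCD* and *ACSL4* passed in each of the 10 fits without 1 embryo, *FADS1* in 9 and *ELOVL6* in 3. The *ELOVL5* to *ELOVL6* ratio difference was 0.51 to 0.73, that of *ACSL3* to *ACSL4* 0.76 to 1.40 and that of *FADS1* to *FADS2* -0.14 to 0.18 in these repeats. With 9 embryos there are fewer splits, which limits the exact permutation p of these ratios. A pass remained possible, since the *ACSL3* to *ACSL4* ratio passed without nc2. The *ELOVL5* to *ELOVL6* ratio kept its direction throughout, but it passed in 7 of its alternative settings and no longer passed in 5. The log2 fold changes that changed sign all belong to genes that did not pass the test in either fit. With median ratio scaling, *HMGCS1* had 0.070, *FDPS* 0.018, *FDFT1* 0.080, *SQLE* 0.045, *NSDHL* 0.073, *SC5D* 0.060, *INSIG2* 0.074, *SCAP* 0.093. With quantile normalization, *HMGCS1* had 0.047, *FDFT1* 0.061, *SQLE* 0.025, *NSDHL* 0.058, *SC5D* 0.044, *INSIG2* 0.024, *SCAP* 0.024. With edgeR, *MVK* had -0.057, *MSMO1* -0.036, *HSD17B7* -0.026, *SREBF1* -0.11, *ACSL3* -0.024. With DESeq2, *INSIG2* had 0.0013, *SREBF1* -0.033. With the *RN18S1* share as a covariate, *MVK* had -0.084, *FDFT1* 0.27, *SQLE* 0.040, *SC5D* 0.21, *INSIG2* 0.17, *SREBF1* -0.40, *SREBF2* -0.035, *FASN* -0.084, *ELOVL5* -0.045. With equal totals, *SCAP* had 0.010. With sample weights, *MSMO1* had -0.013, *SCAP* 0.12, *ACSL3* -0.034. With nc2 and ko4 left out, *FDPS* had 0.017, *FDFT1* 0.0038, *SCAP* 0.17. With 1 embryo left out, the ranges that cross 0 were *HMGCS1* -0.26 to 0.11, *MVK* -0.064 to 0.17, *FDPS* -0.30 to 0.072, *FDFT1* -0.29 to 0.096, *SQLE* -0.18 to 0.12, *MSMO1* -0.043 to 0.30, *NSDHL* -0.28 to 0.23, *HSD17B7* -0.071 to 0.53, *SC5D* -0.22 to 0.11, *DHCR7* -0.34 to 0.011, *INSIG2* -0.14 to 0.13, *SCAP* -0.18 to 0.13, *SREBF1* -0.020 to 0.48, *ACSL3* -0.021 to 0.14. The causes were not tested. No paired analysis was possible because the *SOX2* KO columns carry no replicate numbers that match the labels.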
